A study of Homo sapiens with 6 samples.

Results

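Axon guidance ligands and receptors were followed in A549, a human lung adenocarcinoma cell line. Members were the protein-coding genes whose symbols carry the stems of the ephrins (EFNA, EFNB), Eph receptors (EPHA, EPHB), semaphorins (SEMA), plexins (PLXN), neuropilins (NRP), netrins (NTN), UNC5 receptors, Slits, Robos or repulsive guidance molecules (RGM), with DCC and NEO1 added. The rule found 76 genes among the 58721 in the table. UNC5B and RGMA were the starting point because they stood among the larger differences of the same comparison, so their values are given as a description with no test. The prefix UNC5 also takes in UNC50, a Golgi membrane protein, and UNC5CL, which are not netrin receptors.

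The 6 libraries were polyadenylated RNA of A549 cells in culture: 3 from cells overexpressing KAT8 R98W, a substitution form of the lysine acetyltransferase KAT8 (MOF), and 3 from cells overexpressing wild-type KAT8 (WT). By these labels both groups carry an overexpressed KAT8, and no library labelled as lacking it was used here. The labels give neither the vector nor whether the replicates were separate cultures, so a p-value here reflects no more than the spread among these libraries. KAT8 itself had 166, 196 and 236 CPM in the R98W libraries and 12.2, 195 and 184 CPM in the WT libraries (CPM, counts scaled to the library total). The library labelled WT replicate 1 was thus low for KAT8, against its overexpression label, and the member counts below are also given without it. Of the marker genes of A549 and similar carcinoma epithelium, 10 of 10 were above 1 CPM in all 6 libraries, and the list summed to 24330 to 25810 CPM in R98W and 22350 to 23550 CPM in WT.

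Guidance ligands are secreted or membrane-bound cues that attract or repel moving cells and growing axons. Netrins bind DCC, neogenin (NEO1) and UNC5 receptors, RGM proteins bind neogenin and act as co-receptors of bone morphogenetic proteins, and Slits bind Robos. Ephrins and Eph receptors signal between touching cells, and semaphorins act through plexins, with neuropilins as co-receptors of most secreted semaphorins. The same molecules work outside the nervous system, in epithelia, vessels and tumours, where they bear on adhesion, migration and survival.

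Promoter stretches are shown for RGMA, a starting gene, for EFNB1, which was higher in R98W, and for SEMA4F, which was lower. Each is the 250 bases before the most upstream RefSeq start on GRCh38.p14, written 5′ to 3′ on the gene's strand. Capitals mark the GC box GGGCGG, the core letters bound by SP family factors, on either strand. The windows are chr15:93089212-93089461 on the minus strand for RGMA, chrX:68828771-68829020 on the plus strand for EFNB1 and chr2:74653997-74654246 on the plus strand for SEMA4F.
RGMA: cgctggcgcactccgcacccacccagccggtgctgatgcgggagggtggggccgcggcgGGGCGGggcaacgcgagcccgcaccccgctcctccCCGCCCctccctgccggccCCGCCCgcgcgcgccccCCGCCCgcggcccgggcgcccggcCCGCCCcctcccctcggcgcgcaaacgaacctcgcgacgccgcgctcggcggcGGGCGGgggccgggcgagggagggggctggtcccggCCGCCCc
EFNB1: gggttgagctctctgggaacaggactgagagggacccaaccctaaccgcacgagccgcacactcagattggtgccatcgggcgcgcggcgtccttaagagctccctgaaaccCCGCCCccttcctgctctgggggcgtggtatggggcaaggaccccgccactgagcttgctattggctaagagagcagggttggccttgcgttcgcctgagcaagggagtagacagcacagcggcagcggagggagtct
SEMA4F: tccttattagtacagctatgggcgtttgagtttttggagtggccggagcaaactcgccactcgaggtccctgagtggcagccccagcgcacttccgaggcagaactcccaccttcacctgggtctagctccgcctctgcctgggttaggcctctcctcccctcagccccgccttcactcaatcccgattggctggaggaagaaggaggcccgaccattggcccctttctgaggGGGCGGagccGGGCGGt
The RGMA window held 7 GC boxes and 86.4% G or C, EFNB1 held 1 box and 63.6%, and SEMA4F held 2 boxes and 62.4%. The last 24 bases of the EFNB1 window and the last 19 of the SEMA4F window lie inside the gene as GENCODE 29 draws it. The 2 boxes of the SEMA4F window lie within those 19 bases. Among 65 members with a promoter in the RefSeq table, 48 (73.8%) held a GC box, against 55.8% of 15843 protein-coding promoters of the same length. The median G or C content was 65.6% in these members and 62.0% in all these promoters, and its part in the difference was not tested. The box was present in 8 of 13 members called higher, 4 of 4 called lower, 29 of 36 not called and 6 of 11 not tested. No promoter was available for the lower members EFNB3, SEMA6B and UNC5D, for the higher members NTN1 and SEMA6A, or for UNC5B. The letters TATAAA were in 1 of 65 member promoters (1.54%) and in 9.35% of all. These are matches of letters, not measured binding.

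A549 expressed a broad set of these genes, and a few members carried most of the RNA of several families. Levels between genes are given as RPKM, CPM per kilobase of exon. The receptor PLXNB2 had 35.4 ± 1.26 RPKM in R98W and 29.7 ± 4.12 in WT (SD, n = 3 each). The secreted semaphorin SEMA3C had 34.0 ± 1.63 RPKM in R98W and 28.7 ± 2.11 in WT. In both groups the difference between these 2 genes was smaller than the larger of their SDs. NRP1, the neuropilin that serves SEMA3A and VEGF, followed at 28.5 ± 1.90 RPKM in R98W and 26.6 ± 0.534 in WT. EPHA2, the main Eph receptor of many carcinomas, had 27.2 ± 2.73 RPKM in R98W and 22.2 ± 0.846 in WT. The order of NRP1 and EPHA2 was not separated by their spread in R98W.

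Single genes made up most of several families. EPHA2 was 96.8% of the summed EPHA RPKM in R98W and 96.6% in WT. NTN4, a laminin-like netrin, was 96.2% of the netrin sum in R98W and 97.4% in WT. ROBO1, a Slit receptor, was 96.3% of the Robo sum in R98W and 95.1% in WT. At the other end, 12 members did not pass the filter on low counts, with at most 15 counts in any library: EPHA1, EPHA3, EPHA8, EPHB1, NTN3, NTNG1, ROBO2, ROBO4, SEMA5A, SEMA5B, SEMA6D and SLIT2. ROBO4, a Robo of endothelial cells, had 0 counts in all 6 libraries. In A549 the Slit RNA was mostly SLIT3, at 1.34 ± 0.0857 RPKM in R98W and 1.33 ± 0.138 in WT, while SLIT2 was among the 12 low genes.

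**Figure D1:**
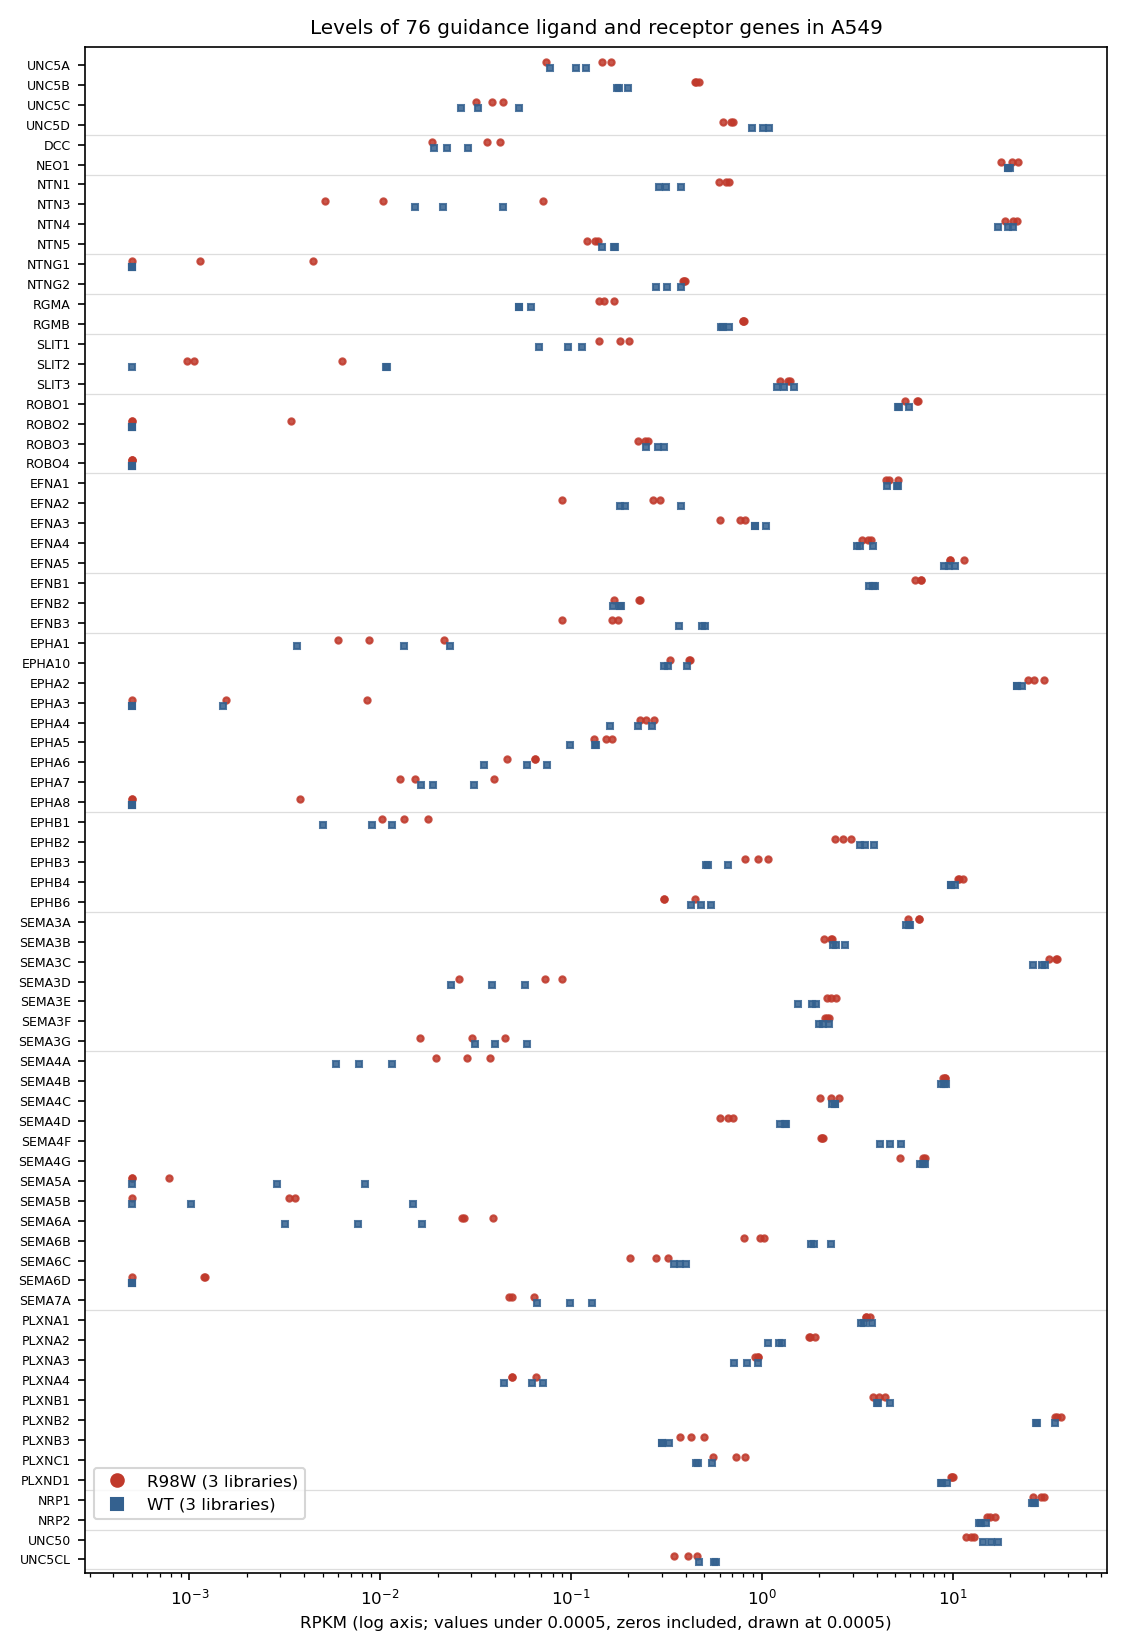
Level of each of the 76 members in every library, as RPKM on a log axis, with R98W libraries as red circles above WT libraries as blue squares, and values under 0.0005 drawn at 0.0005. PLXNB2, SEMA3C, NRP1 and EPHA2 lie at the right, and the R98W points of UNC5B and RGMA lie right of their WT points.

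Members went in both directions, and most were not called. The count test was edgeR's quasi-likelihood test, with a gene called at an adjusted p under 0.05 over all 20713 tested genes. Of all tested genes, 34.8% were called, 16.2% higher and 18.5% lower in R98W. Of the 62 tested members other than UNC5B and RGMA, 15 were higher, 7 were lower and 40 were not called, which is 35.5% called. Higher calls made up 24.2% and lower calls 11.3%. All members are protein-coding, and of the protein-coding genes 43.3% were called, 20.3% higher and 23% lower. The members' total share lay between the 2 backgrounds, and no difference from them was tested. Their median log2 fold change was 0.08, against -0.005 for all tested genes.

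Without the library labelled WT replicate 1, 14 members were higher and 8 lower, beside 33.6% of all genes called. Of these, 13 higher and 7 lower calls were shared with the fit of 6 libraries; RGMB and SEMA4A were lost, and PLXND1 and EPHB6 were gained. The higher members numbered 9 without R98W replicate 1 and also 9 without WT replicate 3. By level, 3 of 15 members under 1 CPM, 8 of 18 between 1 and 10 CPM and 11 of 29 above 10 CPM were called. The same bins of all genes held 13.2%, 39.2% and 47.3% called. Direction went with level among all genes. Above 10 CPM, 7 members were higher and 4 lower, beside 2710 and 1772 of 9472 genes. Between 1 and 10 CPM it was 6 and 2, beside 496 and 1372 of 4765 genes. Under 1 CPM it was 2 and 1, beside 158 and 695 of 6476 genes. Groups were apart, with no overlap, in 30 of the 62 members, beside 45.6% of all tested genes.

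**Figure D2:**
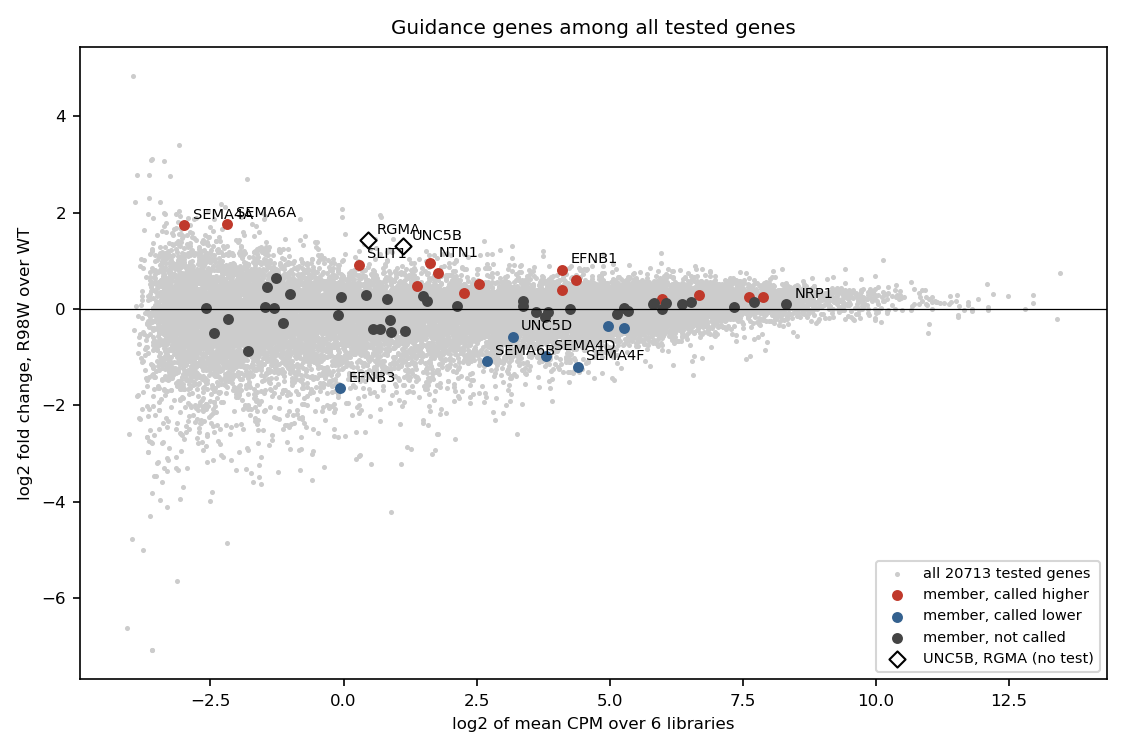
Log2 fold change of R98W over WT against log2 of the mean CPM over 6 libraries, for all 20713 tested genes in grey and the members in colour, with UNC5B and RGMA as open diamonds. The called members lie on both sides of 0, 15 higher and 7 lower.

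Within the netrin and RGM system, UNC5B, RGMA and the ligand NTN1 were higher in R98W while the more abundant receptor UNC5D was lower. NEO1 and NTN4, the most abundant receptor and netrin, were not called. UNC5B (ENSG00000107731, chromosome 10, 71212570 to 71302864, hg38), a netrin receptor of epithelium and vessels that can trigger cell death without ligand, had 3.08, 3.20 and 3.04 CPM in R98W and 1.19, 1.37 and 1.22 CPM in WT. All 3 R98W libraries were above all WT libraries, at a log2 fold change of 1.30 with a standard error (SE) of 0.16. RGMA (ENSG00000182175, chromosome 15, 93035273 to 93089204), a membrane-anchored ligand of neogenin whose GC-rich promoter is printed above, had 2.22, 1.86 and 1.97 CPM in R98W and 0.703, 0.817 and 0.706 CPM in WT. Its groups did not overlap either, at 1.44 on the log2 scale (SE 0.20).

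None of the other UNC5 receptors was called higher. UNC5D (chromosome 8, 35235457 to 35796550), another netrin receptor of the family, had 7.46, 7.59 and 6.78 CPM in R98W and 9.55, 11.8 and 11 CPM in WT. It was lower in every R98W library (log2 fold change -0.57, SE 0.11, edgeR adjusted p = 0.000435). UNC5A had 0.631, 0.702 and 0.322 CPM in R98W and 0.522, 0.339 and 0.463 CPM in WT, with overlapping groups and no call (log2 fold change 0.32, SE 0.35, edgeR adjusted p = 0.519). UNC5C had 0.408 ± 0.0639 CPM in R98W and 0.402 ± 0.151 in WT (SD, n = 3 each), also not called. In RPKM, UNC5B made up 35.3 ± 2.16% of the UNC5A to UNC5D sum in R98W and 13.9 ± 0.402% in WT (SD, n = 3 each). UNC5D made up 52.1 ± 1.03% in R98W and 75.4 ± 3.21% in WT, and stayed the largest of the 4 in every library. The sum itself was 1.29 ± 0.101 RPKM in R98W and 1.32 ± 0.0877 in WT. The shares of UNC5B and UNC5D were apart between the groups in every library, while the sums overlapped. UNC5B was chosen for its difference in this comparison, so the separation of its share is a description only. The share of UNC5D falls in part because that of UNC5B rises.

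NTN1 (chromosome 17, 9021542 to 9244000), the founding netrin and a ligand of DCC and UNC5 receptors, had 4.13, 3.79 and 4.31 CPM in R98W and 2.41, 2.02 and 1.85 CPM in WT. Its groups did not overlap, with a difference of 0.96 on the log2 scale (SE 0.15, edgeR adjusted p = 6.46e-05). NTN4 had 85 ± 5.81 CPM in R98W and 79.6 ± 7.14 in WT (SD, n = 3 each) and was not called. NTN5 and NTNG2, a membrane-anchored netrin-G, were not called, at log2 fold changes of -0.29 and 0.27. NTNG1 and NTN3 were among the 12 low genes. RGMB (chromosome 5, 98768650 to 98798643), the second RGM and a co-receptor of bone morphogenetic proteins, had 5.30, 5.30 and 5.37 CPM in R98W and 4.19, 4.10 and 4.47 CPM in WT. It was called higher at 0.33 on the log2 scale (SE 0.12, edgeR adjusted p = 0.0431). With any 1 of the 6 libraries left out the call was lost (edgeR adjusted p between 0.0738 and 0.112). RGMA made up 16.0 ± 1.26% of the RGM RPKM in R98W and 8.11 ± 0.921% in WT (SD, n = 3 each), so RGMB remained the main RGM in both groups.

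NEO1, the shared receptor of RGMs and netrins, had 166, 179 and 146 CPM in R98W and 158, 161 and 158 CPM in WT. The groups overlapped, at 0.04 on the log2 scale (SE 0.07, edgeR adjusted p = 0.718). DCC, the classical netrin receptor, had 0.560, 0.475 and 0.246 CPM in R98W and 0.382, 0.296 and 0.253 CPM in WT. These low groups overlapped too (log2 fold change 0.46, SE 0.39, edgeR adjusted p = 0.404). In RPKM, DCC stood at 0.0325 ± 0.0123 in R98W and 0.0236 ± 0.00499 in WT (SD, n = 3 each), far below NEO1.

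**Figure D3:**
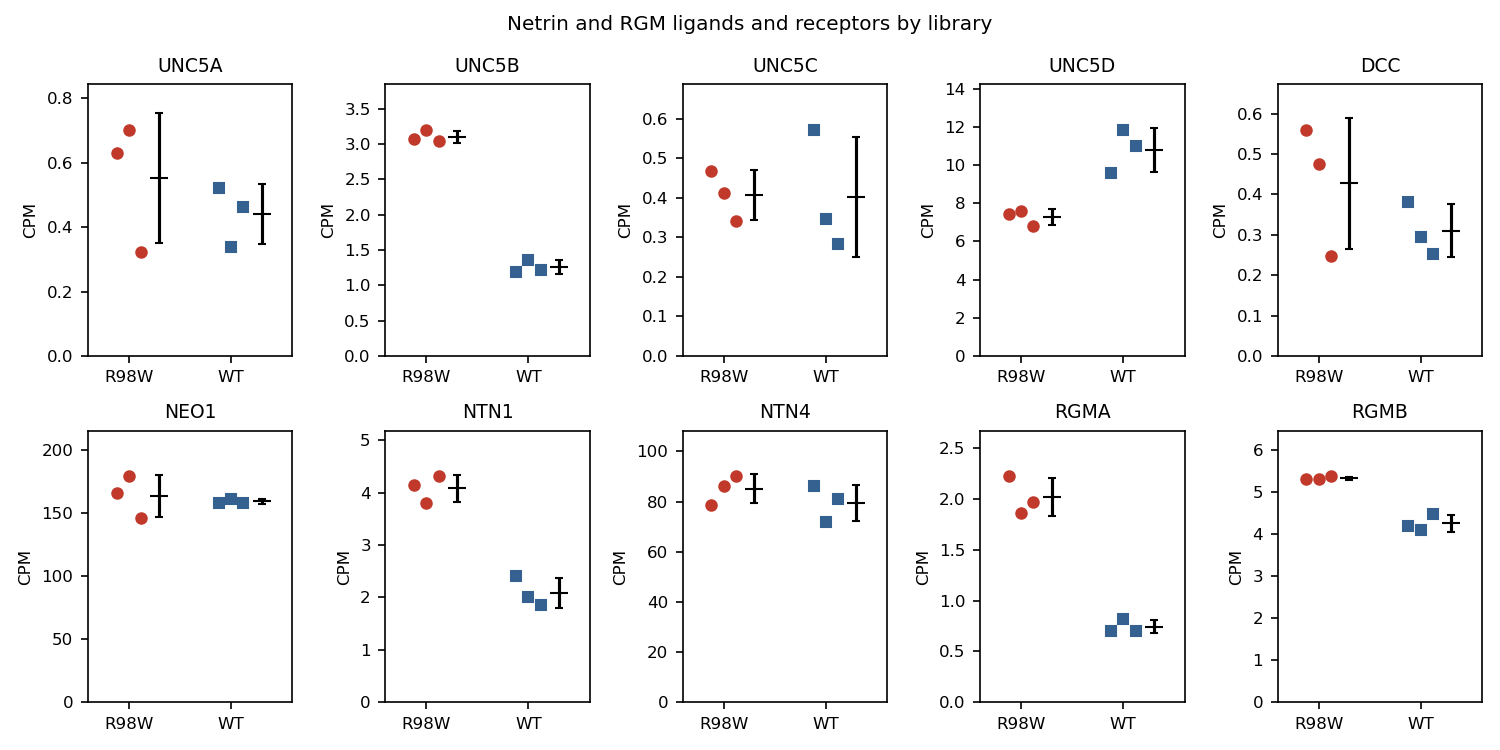
CPM of 10 netrin and RGM genes by library, with 3 R98W points left of 3 WT points, and the mean with 1 SD beside each group, on axes that start at 0. UNC5B, NTN1, RGMA and RGMB are higher in every R98W library, UNC5D is lower, and UNC5A, UNC5C, DCC, NEO1 and NTN4 overlap.

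Slit and Robo genes showed smaller differences apart from SLIT1. SLIT1, a secreted repellent best known from the brain, had 1.28, 1.84 and 1.65 CPM in R98W and 1.03, 0.617 and 0.874 CPM in WT. The groups did not overlap (log2 fold change 0.92, SE 0.23, edgeR adjusted p = 0.00449). The more abundant SLIT3 had 17.7, 19.9 and 19.6 CPM in R98W and 21.0, 17.1 and 18.7 CPM in WT and was not called. ROBO1 had 70.6, 71.9 and 61.4 CPM in R98W and 64.1, 56.7 and 56.5 CPM in WT. It was called higher (log2 fold change 0.20, SE 0.08, edgeR adjusted p = 0.0440) although 1 R98W library lay below 1 WT library. The call was lost without R98W replicate 1 or 2 or WT replicate 2 or 3 (edgeR adjusted p = 0.156, 0.195, 0.122 and 0.199). ROBO3 was not called, at a log2 fold change of -0.22.

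Among the B-class ephrins, EFNB1 rose and EFNB3 fell. EFNB1 (ENSG00000090776, chromosome X, 68828997 to 68842147), a membrane ligand of EphB receptors that also signals back into its own cell, had 21.0, 22.6 and 22.7 CPM in R98W and 12.9, 12.1 and 12.6 CPM in WT. All R98W libraries were above all WT libraries, at 0.82 on the log2 scale (SE 0.08, edgeR adjusted p = 5.26e-07). EFNB3 (chromosome 17, 7705202 to 7711378), a ligand of the same class, had 0.570, 0.289 and 0.531 CPM in R98W and 1.19, 1.63 and 1.56 CPM in WT. It was lower in every R98W library, at -1.65 on the log2 scale (SE 0.27, edgeR adjusted p = 9.92e-05). EFNB2, the ligand of EPHB4 in vessels, had 1.05 ± 0.177 CPM in R98W and 0.885 ± 0.0436 in WT (SD, n = 3 each) and was not called. In RPKM, the ephrin-B sum was 7.02 ± 0.302 in R98W and 4.41 ± 0.0799 in WT (SD, n = 3 each). EFNB1 made up 95.0 ± 0.522% of it in R98W and 85.8 ± 1.68% in WT. The A-class ephrins showed no call among 5 tested genes, with EFNA5 the highest at 10.3 ± 0.993 RPKM in R98W and 9.58 ± 0.616 in WT.

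The EphB receptors, which bind these ligands, also went in both directions. EPHB3 had 4.87, 3.72 and 4.30 CPM in R98W and 2.30, 2.37 and 3 CPM in WT, and it rose by 0.75 on the log2 scale (SE 0.15, edgeR adjusted p = 0.000852). EPHB2, the more abundant of this pair, had 30.3, 33.3 and 36.8 CPM in R98W and 48.4, 41.0 and 43.3 CPM in WT, and it fell by 0.40 (SE 0.08, edgeR adjusted p = 0.000925). Neither gene's groups overlapped. EPHB4, the most abundant EphB at 10.9 ± 0.337 RPKM in R98W and 9.95 ± 0.299 in WT (SD, n = 3 each), was not called, nor was the kinase-inactive EPHB6. The EPHB4 groups did not overlap, with R98W higher. EPHA2 had 103, 110.3 and 126 CPM in R98W and 96.4, 90.9 and 89.9 CPM in WT, and its groups did not overlap. Its difference of 0.29 on the log2 scale (SE 0.07, edgeR adjusted p = 0.00429) was the only call among 6 tested EPHA genes. With a correction for expression level it was 0.19 (edgeR adjusted p = 0.0546).

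Among the membrane-bound semaphorins SEMA4F, SEMA4D and SEMA6B fell to between 0.437 and 0.507 of their WT levels, and the plexins that were called all rose. SEMA4F (ENSG00000135622, chromosome 2, 74654228 to 74683853), a transmembrane semaphorin, had 13.1, 12.8 and 12.9 CPM in R98W and 26.0, 33.2 and 29.3 CPM in WT. The R98W libraries were close together and far below WT, at -1.19 on the log2 scale (SE 0.09, edgeR adjusted p = 1.64e-08). SEMA4D (chromosome 9, 89360787 to 89498130), the ligand of PLXNB1 and also an immune semaphorin, had 8.59, 10.0 and 9.43 CPM in R98W and 17.7, 19.1 and 18.6 CPM in WT. Its groups were as clearly apart, at -0.98 (SE 0.09, edgeR adjusted p = 2.00e-07). SEMA6B (chromosome 19, 4542593 to 4559808), a ligand of class A plexins, had 3.57, 4.34 and 4.52 CPM in R98W and 7.94, 8.26 and 10.2 CPM in WT. It fell by 1.09 (SE 0.13, edgeR adjusted p = 3.69e-06), again with no overlap.

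SEMA4A and SEMA6A were called higher from few counts. SEMA4A had 19, 13 and 27 counts in R98W and 4, 9 and 5 in WT (log2 fold change 1.74, SE 0.59, edgeR adjusted p = 0.0267). SEMA6A had 42, 29 and 31 counts in R98W and 18, 4 and 8 in WT (log2 fold change 1.77, SE 0.53, edgeR adjusted p = 0.0140). The groups of each gene did not overlap. The call of SEMA4A was lost without R98W replicate 1 or 3 or WT replicate 1 or 3 (edgeR adjusted p = 0.0745, 0.135, 0.0960 and 0.0922). That of SEMA6A was lost without R98W replicate 1 or WT replicate 2 or 3 (edgeR adjusted p = 0.0686, 0.0674 and 0.0619), while without WT replicate 1 its log2 fold change was 2.51. SEMA4B, the most abundant of SEMA4 to SEMA7, had 63.2 ± 0.911 CPM in R98W and 63.1 ± 2.05 in WT (SD, n = 3 each). The summed RPKM of SEMA4 to SEMA7 was 21.8 ± 0.883 in R98W and 26.9 ± 0.695 in WT, and SEMA4F made up 9.51 ± 0.374% of it in R98W and 17.6 ± 1.72% in WT.

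Of the 7 secreted SEMA3 genes, 2 rose and none fell, or 28.6%, beside 34.8% of all tested genes and 43.3% of protein-coding ones. SEMA3C, a semaphorin that acts through neuropilins and PLXND1, had 219.8, 218 and 201 CPM in R98W and 191, 165 and 184 CPM in WT. The R98W libraries were above WT by a small margin (log2 fold change 0.24, SE 0.07, edgeR adjusted p = 0.01). SEMA3E, which binds PLXND1 without a neuropilin, had 20.5, 18.4 and 19.5 CPM in R98W and 16.3, 13.0 and 15.4 CPM in WT (log2 fold change 0.39, SE 0.09, edgeR adjusted p = 0.00310). The other 5, SEMA3A among them, were not called. With a correction for expression level the SEMA3C difference was 0.10 on the log2 scale and not called (edgeR adjusted p = 0.262), and it also lost its call without R98W replicate 1 or 2 (edgeR adjusted p = 0.0504 and 0.0516).

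Of 9 plexins, 4 rose and none fell, which is 44.4% called beside 34.8% of all tested genes and 43.3% of protein-coding ones. PLXNA2, a receptor of SEMA6 ligands and, with neuropilins, of SEMA3 ligands, had 24.8, 26.1 and 24.3 CPM in R98W and 17.6, 17.0 and 14.9 CPM in WT. Its groups were apart (log2 fold change 0.60, SE 0.08, edgeR adjusted p = 2.10e-05). PLXNC1, the receptor of SEMA7A, had 8.04, 7.24 and 5.47 CPM in R98W and 5.39, 4.56 and 4.49 CPM in WT (log2 fold change 0.52, SE 0.14, edgeR adjusted p = 0.00682). PLXNB3, the receptor of SEMA5A, was higher by 0.48 on the log2 scale (SE 0.16, edgeR adjusted p = 0.0223). Without R98W replicate 1 the call of PLXNC1 was lost (edgeR adjusted p = 0.0546), and that of PLXNB3 was lost without R98W replicate 3 or WT replicate 2 or 3 (edgeR adjusted p = 0.118, 0.0570 and 0.0769). PLXNB2, which binds SEMA4 ligands, had 249, 256 and 267 CPM in R98W and 250.4, 198 and 199.7 CPM in WT. Its call (log2 fold change 0.25, SE 0.08, edgeR adjusted p = 0.0196) stood beside overlapping groups, with WT replicate 1 among the R98W values, and without that library the log2 fold change was 0.36 (edgeR adjusted p = 0.000374). The call of PLXNB2 was lost without R98W replicate 2 or 3 or WT replicate 2 or 3 (edgeR adjusted p = 0.0561, 0.0728, 0.0757 and 0.143), and with a correction for expression level the difference was 0.10 (edgeR adjusted p = 0.332). PLXNB1, the SEMA4D receptor, had 40.2 ± 2.90 CPM in R98W and 41.4 ± 3.91 in WT (SD, n = 3 each) and was not called. Neither neuropilin was called, with NRP1 at 0.10 and NRP2 at 0.15 on the log2 scale. With a correction for GC content or for exon length NRP2, PLXND1 and EPHB4 were called higher, which made 18 higher members. With a correction for expression level 11 members were higher.

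**Figure D4:**
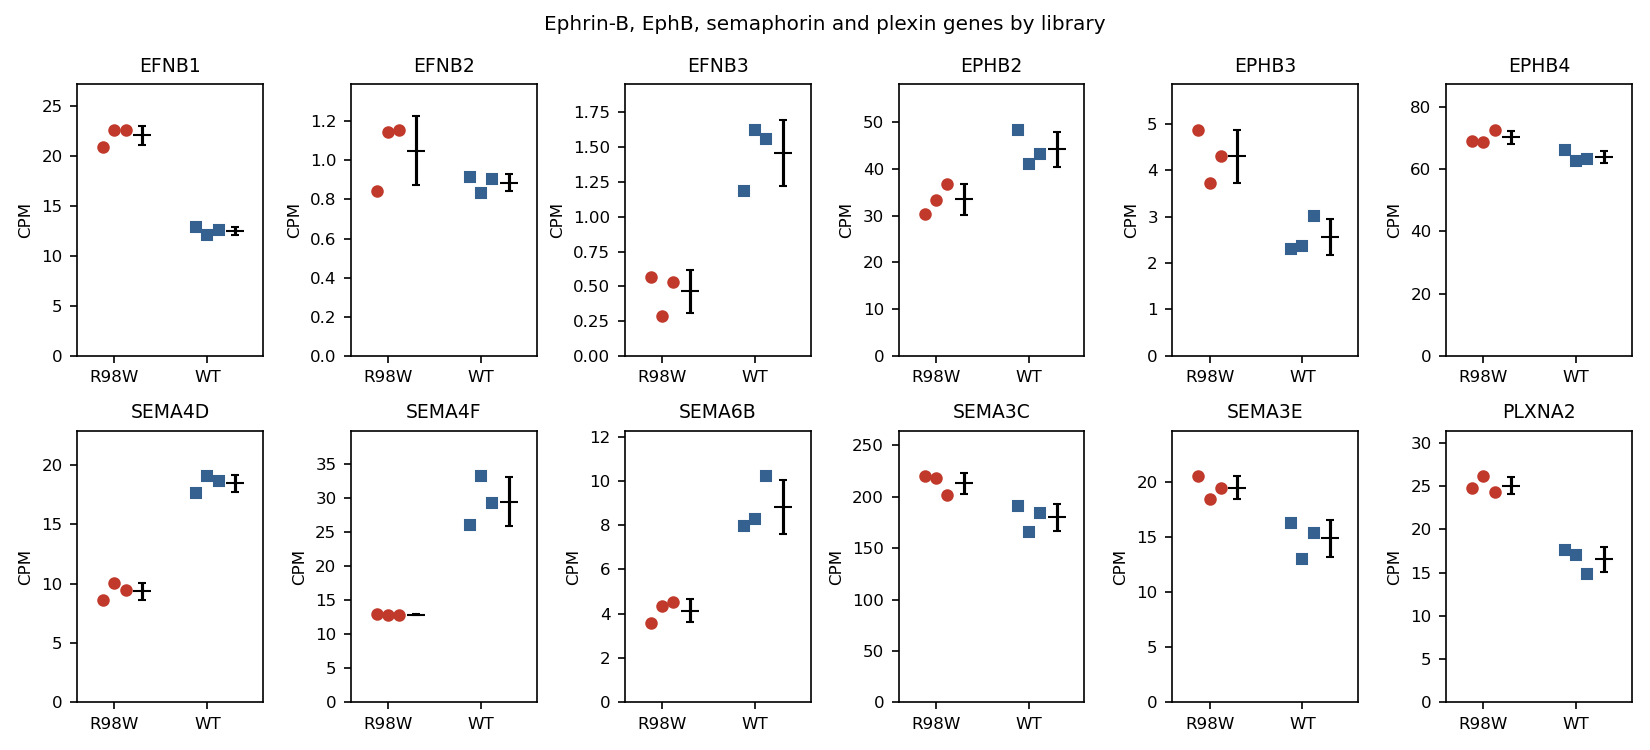
CPM of 12 ephrin-B, EphB, semaphorin and plexin genes by library, with 3 R98W points left of 3 WT points, and the mean with 1 SD beside each group, on axes that start at 0. EFNB1, EPHB3, EPHB4 (not called), SEMA3C, SEMA3E and PLXNA2 are higher in every R98W library. EFNB3, EPHB2, SEMA4D, SEMA4F and SEMA6B are lower, and EFNB2 overlaps.

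By role, 8 of 32 tested ligands rose and 4 fell, and 7 of 28 tested receptors rose and 2 fell, UNC5B and RGMA left out. That is 37.5% and 32.1% called, beside 34.8% of all tested genes. The called changes of at least 2-fold were SEMA4A and SEMA6A upward, from few counts, and EFNB3, SEMA4F and SEMA6B downward. These 5 were ligands, but the receptor UNC5B, at 2.47-fold, and RGMA, at 2.71-fold, were left out of the count. At that size 5.6% of all tested genes were called, 155 higher and 1005 lower. The Golgi gene UNC50 fell by 0.35 (SE 0.08, edgeR adjusted p = 0.00199), and UNC5CL was not called.

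**Figure D5:**
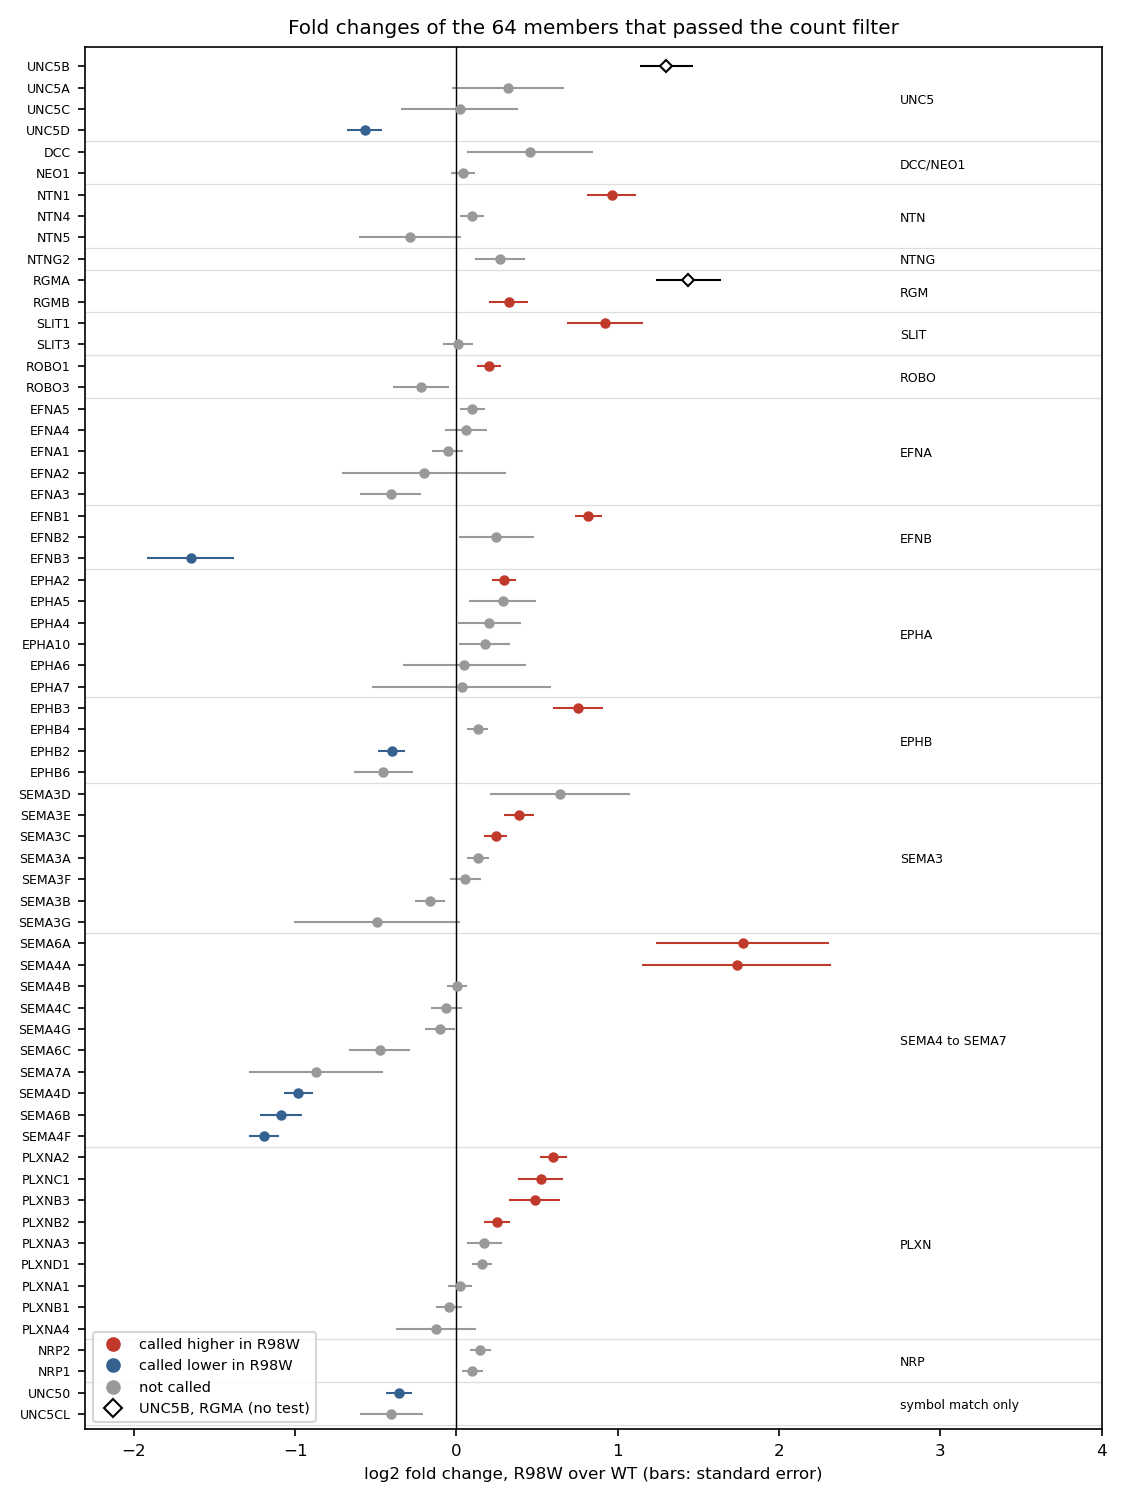
Log2 fold change of R98W over WT for the 64 members that passed the count filter, grouped by family, with bars of 1 SE, red for called higher, blue for called lower, grey for not called and open diamonds for UNC5B and RGMA. UNC5B at 1.30 and UNC5D at -0.57, and EFNB1 at 0.82 and EFNB3 at -1.65, lie on opposite sides of 0 within their families.

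Partners and effectors outside the member rule were taken as 6 lists of 111 genes. Of 103 tested, 30 rose and 16 fell, which is 44.7%, beside 34.8% of all tested genes and 43.3% of protein-coding ones. Among netrin and RGM partners, 8 of 22 rose and 1 fell. The actin-binding protein ABLIM1 rose by 0.49 on the log2 scale (edgeR adjusted p = 4.77e-05), the exchange factor TRIO by 0.38 and the adaptor NCK1 by 0.43. BMP2, a ligand of the RGM co-receptor pathway, had 2.48 ± 0.166 CPM in R98W and 1.44 ± 0.276 in WT (SD, n = 3 each), a difference of 0.79 on the log2 scale (SE 0.18, edgeR adjusted p = 0.00216).

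Of 14 Slit and Robo effectors, 7 rose and 1 fell, or 57.1%, beside 34.8% of all tested genes and 43.3% of protein-coding ones. The actin regulators VASP at 0.57, CAP2 at 0.34, ENAH at 0.30 and CAP1 at 0.28 were among those that rose. Of 21 semaphorin and plexin effectors, 5 rose and 5 fell, or 47.6%. DPYSL5, a collapsin response mediator, had 6.81, 6.03 and 5.18 CPM in R98W and 14.0, 14.6 and 14.5 CPM in WT. The groups were far apart (log2 fold change -1.26, SE 0.11, edgeR adjusted p = 7.14e-08). The tyrosine kinase FES fell to 0.154 ± 0.0544 CPM in R98W, against 1.19 ± 0.197 in WT (SD, n = 3 each), at -2.94 on the log2 scale (SE 0.32, edgeR adjusted p = 1.34e-06). The small GTPases RRAS and RRAS2, on which plexins act, rose by 0.54 and 0.47.

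Of 17 Eph and ephrin effectors, 4 rose and 5 fell, or 52.9%, beside 34.8% of all tested genes and 43.3% of protein-coding ones. The exchange factor VAV3 was at 0.69, the scaffold PICK1 at -1.04, the exchange factor ARHGEF16 at -1.24 and the Src-family kinase FYN at -0.77. Of 15 other guidance and adhesion receptors and their ligands, 2 rose and 2 fell, or 26.7%. RTN4 (Nogo) was at 0.39, the HGF receptor MET at 0.35, the hedgehog co-receptor BOC at -0.79 and LINGO1 at -0.75. Over all 6 lists, 31 rose and 15 fell without the library labelled WT replicate 1, 27 and 14 of them shared with the fit of all libraries. With a correction for expression level 19 rose and 22 fell, so that more list genes were lower than higher, and CAP1 and ENAH were among the 13 higher calls lost.

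Markers of other cell types were read beside these values. Of 9 neuron markers, 4 were above 1 CPM in all libraries, led by RBFOX3, and the list summed to 68.6 to 75.6 CPM in R98W and 63.9 to 74.0 CPM in WT, with STMN2 at 0 counts. Of 8 endothelial markers, 1 (ESAM) was above 1 CPM, the sum was 1.73 to 1.90 CPM in R98W and 2.90 to 3.33 CPM in WT, and TIE1 had 0 counts. Of 7 fibroblast markers, 1 (COL1A1) was above 1 CPM, with sums of 12.1 to 13.8 CPM in R98W and 11.1 to 15 CPM in WT. Of 7 leukocyte markers none was above 1 CPM, with sums of 0.265 to 0.379 CPM in R98W and 0.274 to 0.452 CPM in WT, and CD3E had 0 counts. Of 6 glial and neural crest markers, 1 (MBP) was above 1 CPM, with sums of 66.4 to 68.5 CPM in R98W and 49.3 to 54.2 CPM in WT. The part of the endothelial and glial differences in the values above was not tested. In such bulk libraries fewer cells expressing a gene and less RNA per cell cannot be told apart.

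Some of these genes share exon sequence with a neighbour, and the strand setting of the counting is not given in the sources used here. PLXNC1 overlaps CEP83 on the opposite strand, and CEP83 was itself called higher at 0.28. EPHB4 overlaps SLC12A9, which was called lower, RGMB overlaps RGMB-AS1, and SEMA6A overlaps SEMA6A-AS1. SLIT1 shares exons with ARHGAP19-SLIT1 and PLXNB3 with SRPK3 on the same strand. UNC5CL, at 1.27 CPM in R98W and 1.68 in WT, overlaps OARD1 on the same strand, at 25.2 and 24.6 CPM. In the lists, CAP1 overlaps PPT1, which was lower, BOC overlaps CFAP44, and NCK1 overlaps IL20RB. Their values are uncertain to that extent, as is SRGAP2, which has near-identical copies. No exon overlap with a gene that had counts was found for UNC5B, RGMA, NTN1, EFNB1, EFNB3, SEMA4D, SEMA4F or SEMA6B. Overlaps with genes without counts were not listed.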

How the data were processed

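RNA-seq of A549 cells gave 6 libraries, grouped by their titles as 3 R98W and 3 WT. The deposited table holds raw counts per gene, whole numbers without normalisation. Per the submitters' processing notes, CASAVA 1.8, HISAT2 2.1.0, HTSeq 0.11.3 and hg38 were used; no source used here gives the annotation, strand setting or read filters. Identifiers were matched to GENCODE 29. Library totals were 90007121 to 110152936 counts.

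The test was edgeR 4.0.16 (R 4.3.3) on the counts: filterByExpr defaults (minimum count 10, minimum total 15), TMM scaling, the quasi-likelihood test over 20713 genes without covariates, and Benjamini-Hochberg adjustment at 0.05. SEs come from the test statistic. The biological coefficient of variation was 10.0%. CPM used TMM-scaled totals, and RPKM divided CPM by union exon length. The scripts were tested on simulated data.

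The members and gene lists were chosen with earlier results of these data known. Named genes are all UNC5, RGM, netrin, NEO1 and DCC members that passed the filter, the called members of the other families (the 6 with the smallest p where more were called) with the most abundant one, 4 called genes with the smallest p per list, and KAT8. Others were named after their values were seen. The genes of 1 of the 6 lists enter the summed counts but are not reported here. Alternatives were other scalings, filters and thresholds, DESeq2 1.42.0, limma-voom (limma 3.58.1), a fold of 1.2 as the null, loess corrections for expression level, GC content and exon length (span 0.3), a replicate block and each library left out.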

Additional observations from a re-analysis of the deposited data

How the results depend on the processing

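EFNB1, EFNB3, EPHB3, NTN1, PLXNA2, SEMA4D, SEMA4F, SEMA6B, SLIT1 and UNC5D kept their direction and their call in all 18 alternatives. RGMB missed the threshold in 11 of 18, ROBO1 in 9, PLXNB2 in 7, SEMA4A in 7 of 17, and SEMA3C and PLXNB3 in 5 of 18. The 15 members higher in R98W became 6 in a test against a fold of 1.2, 8 at an adjusted p under 0.01, and 9 to 14 with 1 library left out (9 without R98W replicate 1 or without WT replicate 3). They became 18 with the GC content or the exon length correction. With the expression level correction they became 11, and EPHA2, PLXNB2, ROBO1 and SEMA3C lost their calls. The 7 lower became 7 to 9 with 1 library left out. Of the pathway list genes, the 30 higher became 19 with the expression level correction, 7 against a fold of 1.2 and 21 to 31 with 1 library left out, and the 16 lower became 22 with the expression level correction, 9 against a fold of 1.2 and 12 to 15 with 1 library left out. The cause was not tested, apart from the stricter thresholds and fewer libraries themselves.

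Of all genes, 884 were higher and 1982 lower against a fold of 1.2, beside 3364 and 3839. Reversed log2 fold changes were those of genes that were not called. With the expression level correction NEO1 was at -0.0963, NRP1 at -0.0759 and SEMA4B at -0.058. With upper-quartile scaling SEMA4B was at -0.0104 and SLIT3 at -0.00268, and with at least 50 counts in 3 libraries they were at -0.0115 and -0.00381. With 1 library left out, NEO1 ranged from -0.0287 to 0.12, SEMA4B from -0.031 to 0.0175, SLIT3 from -0.0693 to 0.0796 and UNC5C from -0.179 to 0.349. UNC5B ranged from 1.25 to 1.43 and RGMA from 1.37 to 1.57 over the alternatives.

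Same-numbered libraries did not deviate together (r = 0.006, -0.039 and -0.037). With 3 libraries in a group these values cannot decide whether same-numbered libraries were prepared together, and the labels do not say. With the replicate block, 14 members were higher and 8 lower, 27 and 14 pathway list genes were, and 6883 genes in all were called. KAT8 was not called (log2 fold change 0.61, SE 0.48, edgeR adjusted p = 0.362) but passed with the block (1.22, edgeR adjusted p = 0.000788) and without a count filter (0.61, edgeR adjusted p = 6.72e-16). Its log2 fold change was 0.06 without the library labelled WT replicate 1 (edgeR adjusted p = 0.687) and 1.01 without WT replicate 2 (edgeR adjusted p = 0.137). Depth limits SEMA4A, SEMA6A and the 12 members under the filter.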
